A study of Mus musculus with 4 samples.

Results

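Promoters of protein-coding genes were described here through the CpG sites that lie within 500 bp of a gene's 5′ end. The members were all autosomal sites of this kind (mm9, GENCODE vM1) with at least 10 reads in all 4 libraries. These were 151514 of the 400195 sites that reached this coverage in the whole series. Of 21418 autosomal protein-coding genes, 10840 had at least 1 such site and 9373 had at least 5, and the latter are called promoters below. A promoter held between 5 and 87 sites, with a median of 15. Neighbouring genes can share a promoter, and the 9373 promoters had 8913 distinct sets of sites.

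The study measured DNA methylation in mouse ES cells by RRBS-seq, in which the enzyme MspI cuts genomic DNA at CCGG and bisulfite turns unmethylated cytosines into thymines. WT ES cells and Chr4-cl KO ES cells, which lack a cluster of KRAB zinc finger protein genes on chromosome 4, were each grown in 2 media. One was standard serum medium with 20% FCS and LIF, and the other was 2i + Vitamin C, which lowers methylation across the genome, for 1 week. This gave 4 libraries with 1 library per condition, so no difference below has a replicate check. Per the study's methods, the KO ES cells came from a B6;129 mouse line with a cre/ERT allele at Gt(ROSA)26Sor. The methods also state that KO and WT cells were grown from picked single clones. The labels give neither the clone nor the origin of the WT cells. A difference between the genotypes cannot be told apart from one between clones, cultures or libraries. Per site, the median depth of the members was 69 reads in WT serum, 104 in KO serum, 105 in WT 2i + Vitamin C and 49 in KO 2i + Vitamin C.

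A CpG-rich promoter is normally kept free of methylation, whether or not its gene is on. Promoters with few CpG sites are methylated in most cells, and a small set is methylated as a rule: one allele of imprinted genes, and genes used only in germ cells. Serum-grown ES cells carry high methylation outside promoters. In 2i the maintenance of methylation is weakened, and Vitamin C raises the activity of the TET enzymes that oxidise methylcytosine.

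The promoters that the results turn on are shown first, on the plus strand of mm9, with the measured CpG sites in capitals. Plagl1 is a paternally expressed imprinted gene, shown because its methylation was almost absent in both KO libraries. The stretch lies at chr10:12810419-12810459, just upstream of the annotated gene.
Plagl1: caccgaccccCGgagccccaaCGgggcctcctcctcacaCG

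Wdr20b had the largest gain in KO cells in serum, and the stretch at chr12:66326752-66326862 is coding sequence of its exon. Mgmt encodes a DNA repair enzyme that removes methyl groups from guanine, and also gained methylation. Its stretch at chr7:144085961-144086117 lies upstream of the gene.
Wdr20b: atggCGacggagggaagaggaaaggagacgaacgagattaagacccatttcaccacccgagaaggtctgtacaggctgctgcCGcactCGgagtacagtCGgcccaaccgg
Mgmt: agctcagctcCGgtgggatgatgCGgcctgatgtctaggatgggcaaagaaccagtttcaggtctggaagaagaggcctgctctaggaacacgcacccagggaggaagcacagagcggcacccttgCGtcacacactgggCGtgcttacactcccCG

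Nap1l5, an imprinted gene without introns that sits inside an intron of Herc3, had the highest methylation in WT cells in 2i + Vitamin C. The stretch at chr6:58856620-58856870 is coding sequence.
Nap1l5: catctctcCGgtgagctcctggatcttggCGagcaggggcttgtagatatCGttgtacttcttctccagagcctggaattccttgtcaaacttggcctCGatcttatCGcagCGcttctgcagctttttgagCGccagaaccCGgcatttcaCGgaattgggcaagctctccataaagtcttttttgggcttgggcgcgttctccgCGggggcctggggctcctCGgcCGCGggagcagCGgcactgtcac

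Kcng3, a potassium channel subunit, and Dut, the enzyme that keeps uracil out of DNA, are shown for a pattern that linked one library of each genotype. Both stretches are coding sequence, at chr17:84030738-84030797 and chr2:125073039-125073094.
Kcng3: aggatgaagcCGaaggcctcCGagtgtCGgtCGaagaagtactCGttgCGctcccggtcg
Dut: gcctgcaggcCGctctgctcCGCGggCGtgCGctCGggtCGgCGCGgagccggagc

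Almost all promoters were unmethylated in every library. The level of a promoter is the mean over its sites of the percentage of methylated reads. It was under 10% at 9024 of 9373 promoters in WT cells in serum (96.3%), and at 8837 in KO cells (94.3%). In 2i + Vitamin C the numbers were 9228 (98.5%) and 9266 (98.9%). A level of 50% or more was found at 124 promoters in WT serum and 150 in KO serum. Only 13 and 8 promoters remained at or above 50% in 2i + Vitamin C. The mean level was 3.001% in WT serum and 4.44% in KO serum, and 2.51% and 1.52% in 2i + Vitamin C.

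**Figure D1:**
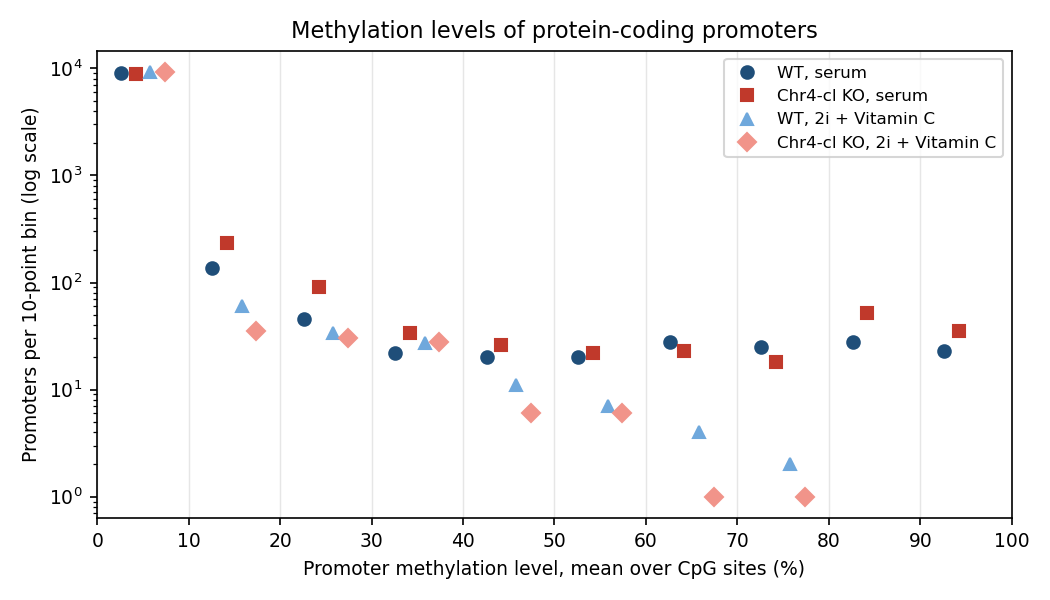
Number of promoters (vertical axis, log scale) in each 10-point bin of promoter methylation level (horizontal axis, %) for each of the 4 libraries, with bins that hold no promoter left blank. The bin under 10% holds 8837 to 9266 promoters, both serum libraries reach the 90 to 100% bin (23 WT and 35 KO promoters), and neither 2i + Vitamin C library has a promoter at 80% or above.

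The same libraries were far more methylated away from promoters. In 10809 windows of 1 kb that lay more than 2000 bp from any protein-coding 5′ end, outside lincRNA promoters, and held at least 5 sites, mean methylation was 48.7% and 54.1% in serum. It was 23.7% and 21.7% in 2i + Vitamin C, in the order WT and KO. Sites 500 to 2000 bp from a protein-coding 5′ end were between promoters and the rest, at 8.36%, 10.8%, 4.43% and 3.23% (WT serum, KO serum, WT 2i + Vitamin C and KO 2i + Vitamin C). The 3053 sites in lincRNA promoters were close to the protein-coding ones, at 4.31%, 5.64%, 2.76% and 1.75% in the same order. Sites in protein-coding promoters averaged 2.62%, 3.96%, 2.44% and 1.45%.

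Within promoters, methylation hardly depended on the distance from the 5′ end. In WT cells in serum it ran from 1.85% in the 100 bp bin that begins 200 bp upstream to 2.59% in the bin that begins 500 bp upstream. In the promoters at 50% or more in WT serum, no bin fell to the level of other promoters, and the bins ranged from 69.3% to 80.1% in WT cells in serum. In WT cells in 2i + Vitamin C these bins ranged from 22.7% to 34.8%.

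**Figure D2:**
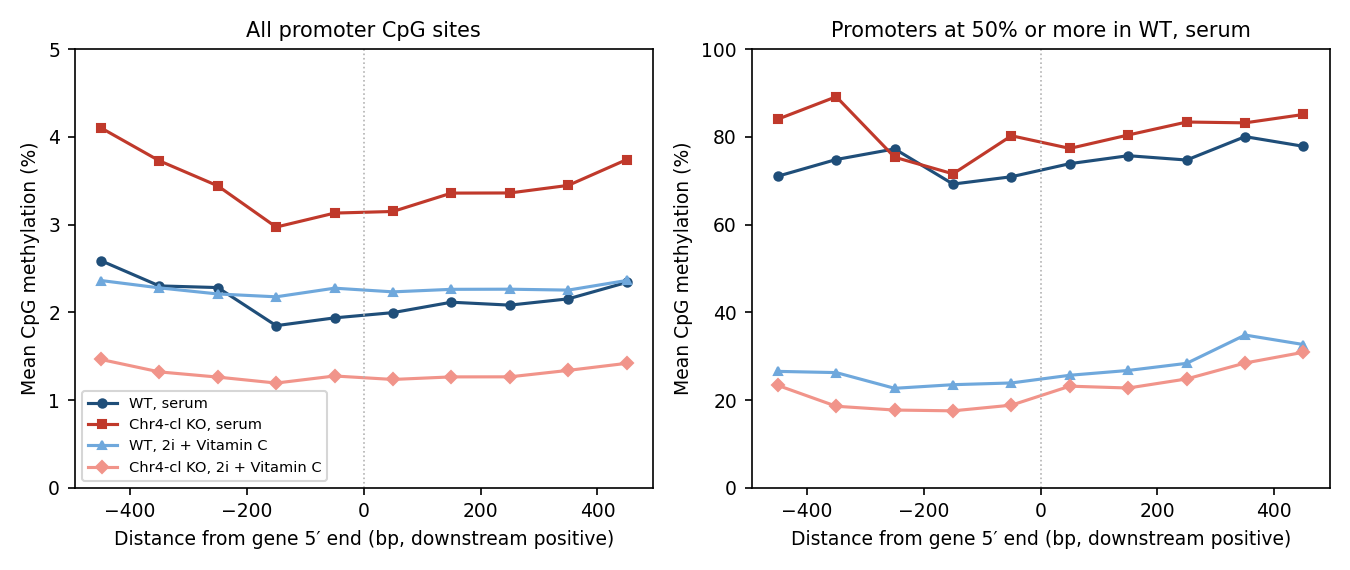
Mean CpG methylation (%, vertical axis) in 100 bp bins of distance from the gene 5′ end (bp, horizontal axis, downstream positive), for all promoter sites on the left and for promoters at 50% or more in WT serum on the right, with a line for each library and different vertical scales. On the left the KO serum library is highest in all bins and the KO 2i + Vitamin C library lowest, and on the right both serum libraries stay near 70% or above.

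CpG content separated the methylated promoters from the rest. A promoter was put in the high CpG class where a 500-base stretch of its 1001-base window had a CpG observed/expected ratio above 0.75 and more than 55% G and C, and in the low class where no stretch exceeded a ratio of 0.48. RRBS favours CpG-rich DNA, and the high class made up 84.4% of the promoters measured but 45.6% of all autosomal protein-coding genes. Of 7911 high CpG promoters 8 were at 50% or more in WT cells in serum, against 67 of 1348 intermediate and 49 of 114 low ones. Mean levels in the low class were 40.1% in WT serum and 46.5% in KO serum, and 15.5% and 13.1% in 2i + Vitamin C. The high class had 1.63% and 2.74% in serum, then 2.11% and 1.16% in 2i + Vitamin C. In the intermediate class the values were 7.90%, 10.9%, 3.74% and 2.66%.

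A promoter was called different between 2 libraries under a double rule. Its level had to differ by 20 percentage points or more, and the reads of its sites had to pass Fisher's exact test with a p under 0.05 after Benjamini-Hochberg adjustment over all 9373 promoters. The test compares 2 libraries and not the conditions, and covers counting error only. A read that spans several sites is counted at each of them, and PCR copies were not separated. These p-values and the 95% Wilson intervals below are therefore too narrow. The intervals belong to the reads pooled over a promoter's sites, whereas the levels are means over sites. By the test alone, 4097 promoters (43.7%) differed between KO and WT cells in serum and 3055 (32.6%) in 2i + Vitamin C, and the 20-point minimum decided every call.

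In the comparison of media, methylated promoters lost most of their methylation in 2i + Vitamin C. In WT cells 177 promoters were lower than in serum (1.89% of those tested) and 1 was higher (0.0107%). In KO cells 255 were lower (2.72%) and 0 were higher (0%). In the 1 kb windows elsewhere, 53.1% were lower and 0% higher in WT cells, and 60.5% were lower and 0.037% higher in KO cells. Both serum libraries lay at least 5 points above both 2i + Vitamin C libraries at 407 promoters (4.34%), and at 0 promoters (0%) was the order the other way. The mean over all promoters changed by -0.494 points in WT and by -2.92 points in KO cells. The median in WT cells went the other way, at +0.599 points, and the mean turned positive in promoters with at least 10 sites (+0.340) and without the sites within 20 bp of a CCGG (+0.166).

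The 51 promoters at 80% or more in WT cells in serum had a median of 89.7% there and 34.0% in 2i + Vitamin C, and kept a median of 38.4% of their level. In KO cells these promoters had medians of 91.9% and 31.5%. The 3822 windows elsewhere that started in the same band kept more, with a median of 54.4% of their level in WT and 48.9% in KO cells. Of the 51 promoters 13 stayed at 50% or more in WT cells and 8 in KO cells. These values describe regions of single libraries, and the promoters of this band were chosen by the WT serum library itself.

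Among the promoters with the largest losses was Ghrh, the hypothalamic hormone that releases growth hormone. It had 90.5% in WT serum and 92.9% in KO serum, and 16.9% and 19.0% in 2i + Vitamin C. Ptk6, an epithelial tyrosine kinase, had 84.6%, 80.03%, 13.4% and 3.33% in the same order. At Mb, which encodes myoglobin, the levels were 65.0%, 93.0%, 4.58% and 7.06%. Klb, the co-receptor for FGF21, had 79.2%, 89.7%, 11.3% and 4.51%. In each of these genes both serum libraries were above both 2i + Vitamin C libraries, but the genes were chosen for their large losses. This order held at 1908 promoters in all (20.4%). The remaining largest losses were at Gm16519, Iqcj, 1700018B08Rik, Dnajc5g, Gm6457, Rhobtb1, Rp1l1, 1700021F07Rik and Itgad, with 68.4% to 94.8% in WT serum and 3.92% to 21.1% in WT 2i + Vitamin C.

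Fkbp6, a chaperone needed for meiosis and for transposon silencing in male germ cells, was the clearest case with high CpG content. Its 10 sites had 89.7% in WT serum and 90.6% in KO serum, and 20.4% and 19.9% in 2i + Vitamin C. The intervals were 87.8 to 90.1% and 89.4 to 91.4% in serum, and 18.6 to 22.04% and 17.3 to 22.8% in 2i + Vitamin C. The loss was of nearly the same size in both genotypes, -69.3 points in WT and -70.8 points in KO cells.

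Germ cell genes had the highest median of the gene lists in both serum libraries. Of 42 autosomal genes on the list, 23 had a measured promoter. Their median was 15.9% in WT serum and 28.2% in KO serum, against 1.28% and 2.16% over all promoters. In 2i + Vitamin C the list's medians were 4.55% and 3.28%, against 1.97% and 1.09%. In WT cells 7 of the 23 were lower in 2i + Vitamin C than in serum, and in KO cells 11 were, beside 1.89% and 2.72% of all promoters. Dazl, an RNA-binding protein of germ cells, had 43.5% in WT serum and 56.8% in KO serum, and 5.60% and 3.58% in 2i + Vitamin C. Tex101, a surface protein of germ cells, had 81.3%, 82.6%, 31.2% and 24.7%. Asz1, a protein of the piRNA pathway, had 54.3%, 69.7%, 18.7% and 6.99%. Hormad1, Slc25a31 and Sycp2 were also lower in both genotypes, and Hormad2, Mael, Smc1b and Tdrd6 in KO cells. Hormad2 was also among the promoters higher in KO cells in serum, at 15.9% in WT and 37.5% in KO cells. Not all members were methylated, and Boll, Ddx25, Stag3 and Syce2 were under 4% in all 4 libraries.

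Imprinted genes were split into many unmethylated promoters and a few methylated ones. Of 40 autosomal genes 22 had a measured promoter, and 15 of these were under 10% in WT cells in serum. In WT cells 4 were lower in 2i + Vitamin C than in serum (Peg10, Sgce, Plagl1 and Nnat), and in KO cells 1 was (Nap1l5), beside 1.89% and 2.72% of all promoters. The call of Nnat was lost with reads thinned to equal depth (-21.25 points became -11.26), and that of Nap1l5 with a coverage minimum of 20 reads (-25.48 became -16.55). At Nap1l5, which encodes a nucleosome assembly protein, the 14 sites had 90.6% in WT serum and 94.2% in KO serum, and 73.3% and 68.7% in 2i + Vitamin C. At the site nearest to the start of the printed stretch, 43 of 43 reads were methylated in WT cells in serum and 28 of 36 in WT cells in 2i + Vitamin C. Nnat, a small membrane protein of developing brain, had 53.0% in WT serum and 58.4% in KO serum, and 31.8% and 46.8% in 2i + Vitamin C. Its KO level in 2i + Vitamin C rested on 28 to 32 reads per site. Mcts2 had 31.9%, 33.8%, 15.6% and 15.9%, and Inpp5f had 10.9%, 8.77%, 3.93% and 1.82%.

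Apart from Nap1l5, the highest promoters in WT cells in 2i + Vitamin C were Rpl29-ps5, Gm10800, Rps6-ps2, Lime1, Gm10801, 4933415F23Rik, Cd6, Tpst1 and Dgcr2, from 72.0% down to 52.9%. All 9 were above 80% in WT serum. Rpl29-ps5 rested on only 62 to 95 reads per library, summed over its 5 sites. Gm10800 and Gm10801 are uncertain, since their summed reads differed widely between libraries, for Gm10800 from 2668 in WT 2i + Vitamin C to 256152 in KO 2i + Vitamin C. The sites of Dgcr2 are also those of Tssk1. Among high CpG promoters, 3110070M22Rik had 47.1% and 34.4% in serum, then 41.4% and 47.8% in 2i + Vitamin C, and was called in none of the 4 comparisons. With the reads of its sites pooled, the values were 55.4%, 28.4%, 27.4% and 31.4%, so that they depended on the averaging. Its 25 sites had an SD between sites of 27.5 to 36.9 points, so that its mean covers both methylated and unmethylated sites. The other high CpG promoters with the highest means were Tktl2, Zfa, Nefm and Zfp180, at 47.2% to 72.1% in WT serum and 4.95% to 23.1% in WT 2i + Vitamin C.

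In the comparison of genotypes in serum, 40 promoters were higher in KO than in WT cells (0.427%) and 5 were lower (0.0533%). Elsewhere 6.2% of the windows were higher and 0.287% lower. The mean over all promoters was 1.44 points higher in KO cells, positive on all 19 autosomes, and 8178 promoters (87.3%) were on that side. In 2i + Vitamin C 4 promoters were lower in KO cells (0.0427%) and 0 were higher (0%), with 1.28% of windows lower and 0.574% higher. The mean was 0.982 points lower in KO cells there, negative on all 19 autosomes, and 8105 promoters (86.5%) were lower. The mean difference between the genotypes thus had opposite signs in the 2 media. With 1 library per condition, this cannot be told apart from a difference between single libraries.

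**Figure D3:**
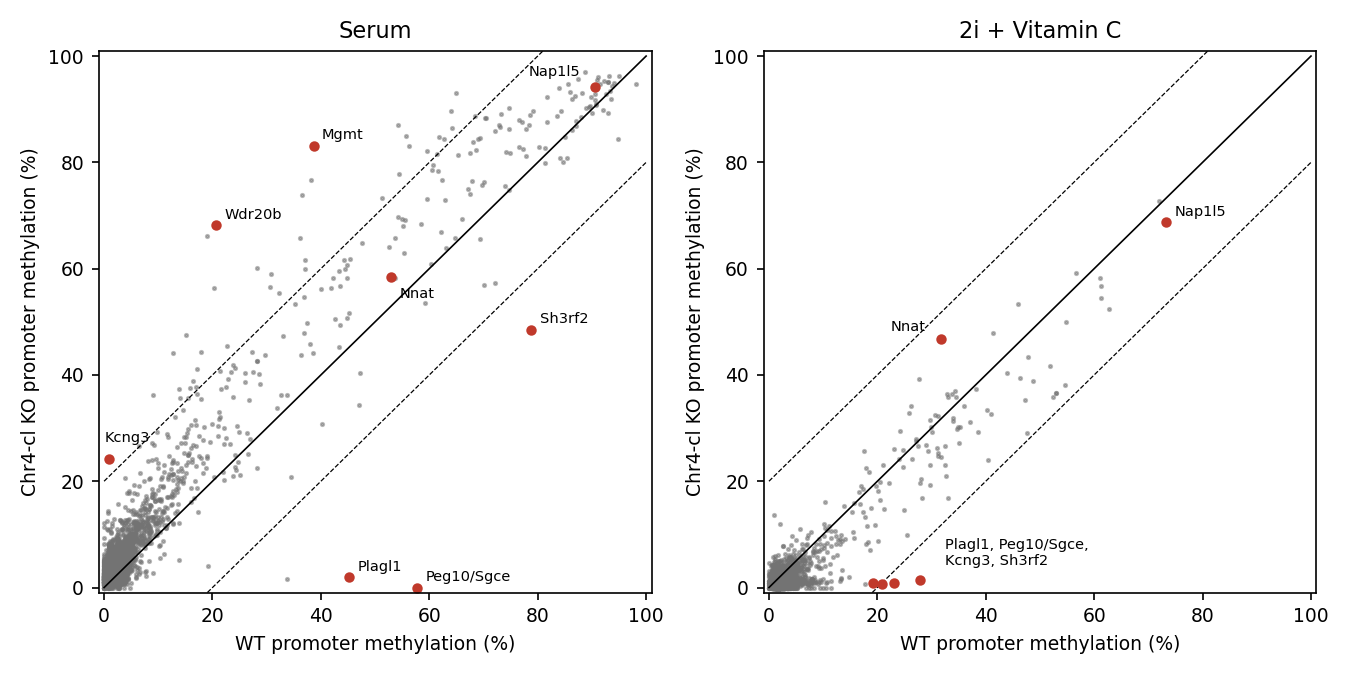
Promoter methylation level in Chr4-cl KO cells (%, vertical axis) against WT cells (%, horizontal axis) in serum on the left and in 2i + Vitamin C on the right, with a point per promoter, the line of equal levels and dashed lines 20 points to either side. Named promoters are in red, and Peg10/Sgce and Plagl1 lie near 0% in KO cells in both media while Mgmt and Wdr20b are far above the line in serum only.

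The promoters that were lower in KO cells in serum were Peg10, Sgce, Plagl1, Sfi1 and Sh3rf2. The first 3 are on the imprinted list, which holds 22 of the 9373 promoters, and Peg10 and Sgce are 1 set of sites counted for both genes. Peg10 and Sgce are neighbouring imprinted genes, transcribed in opposite directions, with methylation on the maternal allele as a rule, and Peg10 derives from a retrotransposon. Their 10 sites lie at chr6:4697355-4697485 in the annotated 5′ UTR of Peg10. These had 57.8% ± 3.21 in WT cells in serum (SD between the 10 sites) and 0% in KO cells, where none of 444 reads was methylated. In 2i + Vitamin C they had 20.9% in WT and 0.755% in KO cells. The intervals were 53.0 to 62.4%, 0 to 0.858%, 17.8 to 23.7% and 0.293 to 1.92% in the same order. Every one of the 10 sites had 0 methylated reads in the KO serum library, from 33 to 46 reads per site.

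Plagl1 encodes a zinc finger protein that slows cell growth. Its 5 sites had 45.2% in WT serum and 2.00% in KO serum, and 19.2% and 0.909% in 2i + Vitamin C. Both KO libraries were below both WT libraries at this gene and at Peg10 and Sgce, and the order held at each site measured. The same order of promoter levels was found at 573 promoters in all (6.11%). The difference in 2i + Vitamin C was -18.3 points for Plagl1, under the 20-point minimum. For Peg10 and Sgce it was -20.1 points, and it went under the minimum, to -19.8 and -18.95, when the reads of the sites were pooled or thinned to equal depth. These were the 3 promoters (0.032%) where both WT libraries exceeded both KO libraries by at least 5 points. At 0 promoters (0%) did both KO libraries exceed both WT libraries by that much. In windows elsewhere, both WT libraries were above by that much at 8 (0.074%) and both KO libraries at 4 (0.037%).

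Sfi1, a centrosome protein, had 33.8% in WT serum and 1.64% in KO serum, and 5.67% and 0.784% in 2i + Vitamin C. Its 24 sites carried 8061 to 19463 reads per library. These were spread unequally, from 10 to 2155 reads per site in WT 2i + Vitamin C, beside a median of 105 over all promoter sites. Sh3rf2, a ubiquitin ligase, had 78.8% and 48.5% in serum, then 27.9% and 1.499% in 2i + Vitamin C. Only 10 to 55 reads covered each of its sites. In 2i + Vitamin C Sh3rf2 differed by -26.4 points, and by -19.3 points with reads pooled. The promoters that were lower in KO cells in 2i + Vitamin C were Peg10, Sgce, Sh3rf2 and Kcng3.

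The 8 largest gains in KO cells in serum were at promoters with 15.1% to 54.2% in WT cells. Among the other gains was Kcng3, with 0.869% in WT cells. Wdr20b, a WD repeat protein, had 20.7% in WT and 68.2% in KO cells, with intervals of 16.3 to 24.9% and 63.4 to 71.0%. The gain was seen at each of its 7 sites, from 59.1% to 80.9% in KO cells against 16.0% to 29.0% in WT cells. Pcdha11, an adhesion protein of neurons, had 18.9% and 66.2%. Mgmt had 38.7% and 83.1%, with 32.0% to 48.8% in WT and 79.2% to 88.5% in KO cells at its single sites. Fas, a death receptor, had 15.1% and 47.5%, with an SD between its 5 sites of 17.97 and 23.7 points. In 2i + Vitamin C these 4 promoters were under 4% in both genotypes, where Wdr20b had 1.80% in WT and 2.53% in KO cells, and Mgmt had 3.58% and 3.44%. The other largest gains were at Rpl27-ps1, Gm6169, E330013P04Rik and Gm6807, with 20.3% to 54.2% in WT and 56.4% to 87.0% in KO cells. E330013P04Rik rested on 98 and 65 reads in all.

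By CpG class, the 40 gains were 10 of 7911 high, 20 of 1348 intermediate and 10 of 114 low CpG promoters. Of the 73 promoters at 50 to 80% in WT serum, 66 were higher in KO cells in serum, beside 87.3% of all promoters. The median difference in this band was 11.5 points. In the same band 1650 of 1804 windows elsewhere were higher, with a median difference of 10.7 points. The band was chosen by the WT serum level, which also enters the difference, so the choice affects these values.

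**Figure D4:**
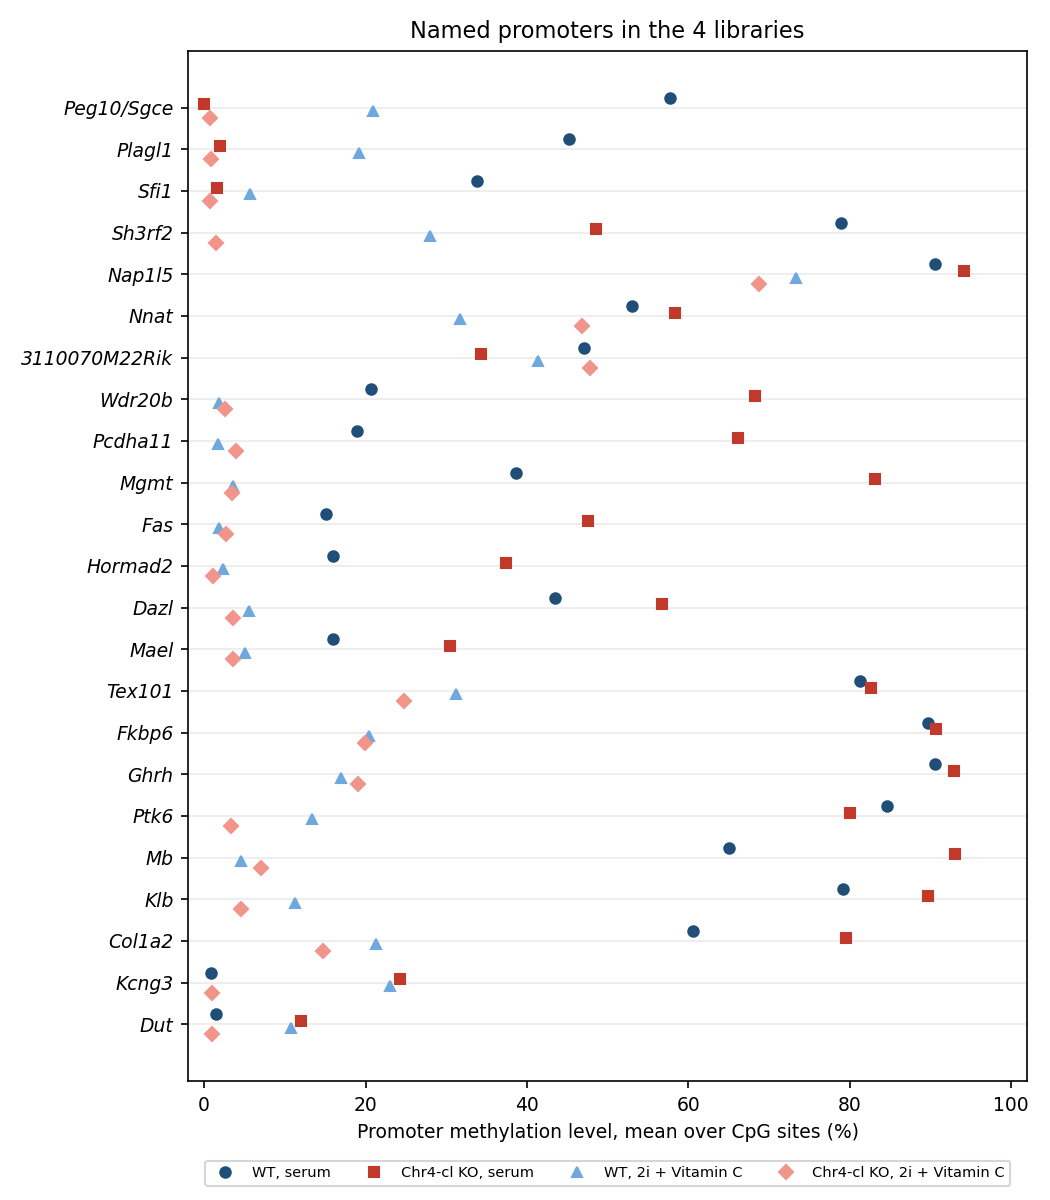
Methylation level (%, horizontal axis) of 23 named promoters or promoter pairs in each of the 4 libraries, with a symbol per library, shifted slightly in height for legibility. Peg10/Sgce, Plagl1 and Sfi1 have both KO symbols near 0%, the rows from Wdr20b to Hormad2 have the KO serum symbol apart from the other three, and Kcng3 and Dut have KO serum together with WT 2i + Vitamin C.

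Most other gene lists showed low levels with few calls, but the clustered protocadherins and tissue-specific genes had higher serum medians than all promoters. All 8 measured pluripotency genes (among them Sox2, Klf4 and Fgf4) were under 10% in all libraries, with a maximum of 3.28%. Pou5f1 and Nanog had fewer than 5 measured sites. Since 96.3% of all promoters were under 10% in WT serum, these low levels are no check of ES cell identity. All 13 housekeeping promoters and all 13 of the methylation machinery were under 10% as well. Among the latter, Mbd4, a repair enzyme for deaminated methylcytosine, had 1.38% and 6.81% in serum, then 7.22% and 0.704% in 2i + Vitamin C. The 9 early lineage genes were under 10% in WT cells in both media, and Foxa2, which specifies endoderm, had 14.3% in KO cells in serum. The 5 trophoblast promoters were under 10% in all libraries. Of 4 fibroblast genes, Col1a2, a collagen chain, was methylated, with 60.6% and 79.6% in serum, then 21.3% and 14.7% in 2i + Vitamin C.

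Of 17 Hox promoters, 13 were under 10% in KO cells in serum, beside 94.3% of all promoters. In 2i + Vitamin C against serum, Hoxd12 was lower in WT and Hoxc6 in KO cells, beside 1.89% and 2.72% of all promoters. Hoxc6 had 13.1% in WT serum and 32.0% in KO serum, and 1.69% and 2.68% in 2i + Vitamin C. The 4 clustered protocadherins had medians of 8.79% and 17.8% in serum, against 1.28% and 2.16% over all promoters. Pcdha11 was the 1 called. It was higher in KO than in WT cells in serum, beside 0.427% of all promoters. In KO cells it was also lower in 2i + Vitamin C than in serum, beside 2.72% of all promoters. Of 173 zinc finger (Zfp) promoters 170 were under 10% in WT cells in serum. Zfp180 was lower in 2i + Vitamin C in WT cells and Zfp560 in KO cells, beside 1.89% and 2.72% of all promoters. Of 24 histone promoters, those of the testis variants Hist1h2aa and Hist1h2ba, which share sites, were lower in 2i + Vitamin C. Hist1h2aa was called in both genotypes and Hist1h2ba in KO cells, beside 1.89% (WT) and 2.72% (KO) of all promoters. Hist1h2aa had 25.9%, 40.4%, 1.23% and 0.946%, and Hist1h2ba had 22.5%, 37.8%, 2.91% and 2.30%, each in the order WT serum, KO serum, WT 2i + Vitamin C and KO 2i + Vitamin C. Only 2 of 39 tissue-specific genes were measured, with medians of 10.2% in WT serum and 17.6% in KO serum. Of these Myod1, the muscle regulator, was lower in 2i + Vitamin C in KO cells (22.2% and 1.497%), beside 2.72% of all promoters. None of 1106 olfactory receptor promoters held 5 measured sites.

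Zfp57 binds methylated TGCCGC at imprinted regions, and CACGTG is the E-box bound by MYC and other helix-loop-helix proteins. Both were searched on both strands of the 1001-base windows. TGCCGC was found in 55.5% of the 9373 promoters, in 20.2% of the 124 at 50% or more in WT serum, and in 8.70% of the 23 of these that stayed at 40% or more in WT 2i + Vitamin C. Among the 40 promoters higher in KO cells in serum it was found in 27.5%. CACGTG was found in 22.02%, 16.9%, 13.04% and 27.5% of the same groups. TGCCGC holds a CpG, and the groups differ in CpG content, so that the shares describe the windows only.

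Among the orders with 2 libraries above the other 2, the most common linked one library of each genotype. KO serum and WT 2i + Vitamin C both exceeded WT serum and KO 2i + Vitamin C at 5717 promoters (61.0%), and the reverse held at 147 (1.57%). With a gap of at least 5 points the numbers were 38 (0.405%) and 1 (0.0107%), the latter being 3110070M22Rik. Averaged over all promoters, this pair was 1.21 points above the other, against 0.230 points for KO minus WT over both media and -1.71 points for 2i + Vitamin C minus serum over both genotypes. In the 7757 high CpG promoters with a mean under 5%, the median levels were 1.22% (WT serum), 2.05% (KO serum), 1.92% (WT 2i + Vitamin C) and 1.05% (KO 2i + Vitamin C). The higher pair also had the larger read depth, and the other 2 libraries were deposited with a second list of sites at mostly very low coverage, of which only 59 and 54 sites reached 10 reads. With the reads of each site thinned to its lowest coverage among the 4 libraries, KO minus WT was 1.44 points in serum and -0.992 points in 2i + Vitamin C, about as large as with all reads. The mean differences between KO and WT cells in both media, given above, have the direction of this pattern.

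Kcng3 had the largest gap, with 0.869% in WT serum and 24.2% in KO serum, and 23.0% and 0.933% in 2i + Vitamin C. It was called in all 4 comparisons, and was the 1 promoter called higher in 2i + Vitamin C. Its 6 sites lie between 449 and 487 bp downstream of the 5′ end and were unequal. At the last capital CG of the printed Kcng3 sequence, 6 bases before the CG of a CCGG, methylation was 71.9% in KO serum and 66.7% in WT 2i + Vitamin C, and 1.49% and 0% in the other libraries. At the first it was 6.42% and 6.88%, and 0.370% and 2.78% in the others. Dut had 1.53% and 12.05% in serum, then 10.8% and 0.972% in 2i + Vitamin C, Nol12 had 0%, 11.4%, 9.94% and 0%, and Traf3 had 1.18%, 10.5%, 11.4% and 1.20%.

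Single sites with a large gap of this kind were mostly close to the enzyme's recognition sequence. A gap of at least 20 points in this direction was found at 248 promoter sites, and at 3 in the opposite direction. Of the 248, 132 (53.2%) lay exactly 6 bases from the CG of the nearest CCGG, although 3274 of all 151514 promoter sites did. A further 40 lay at 18 bases, and none within a CCGG. Of sites 6 bases away 4.03% had the gap, against 1.23% at 18 bases and 0 of 3076 sites at 5 bases. Of the 132 sites, 93 lay before the CCGG on the plus strand and 39 after it, where all sites at this distance were split into 1622 and 1652. Of the 38 promoters with a 5-point gap, 33 held a site with the 20-point gap, as did 223 of all 9373 promoters. In an alternative chosen after the data were seen, sites within 20 bp of a CCGG were left out, which left 7183 promoters. The mean difference between KO and WT cells was then 1.12 points in serum and -0.945 points in 2i + Vitamin C. With all sites it was 1.44 and -0.982 points.

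**Figure D5:**
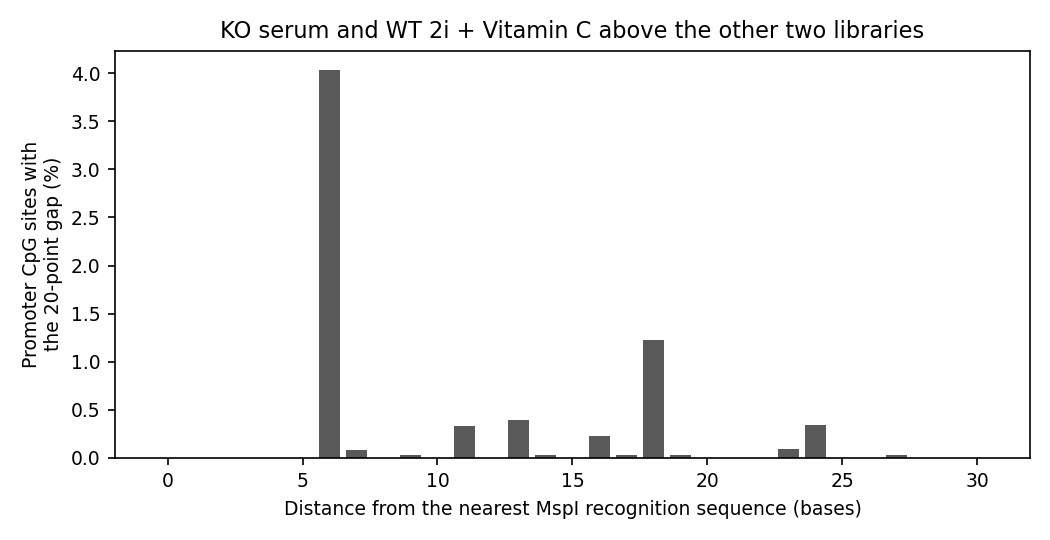
Share of promoter CpG sites (%, vertical axis) at which KO serum and WT 2i + Vitamin C both exceeded the other two libraries by at least 20 points, by distance from the CG of the nearest MspI recognition sequence (bases, horizontal axis). The share is 4.03% at 6 bases and 1.23% at 18 bases, and under 0.5% at every other distance up to 30 bases.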

How the data were processed

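Genomic DNA was cut with MspI and libraries were made with the NEXTflex Bisulfite-Seq Kit. According to the study's methods and the submitters' notes, the authors used Trim Galore on paired reads and Bismark for mapping to mm9, and then tabulated the calls of each CpG dyad. Each deposited table holds per CpG 2 counts, of all reads and of methylated reads, with their ratio as a fraction. The fraction deposited by the authors was not used further, and levels were computed from the counts. Positions listed more than once were dropped (332 rows in WT serum and 830 in KO 2i + Vitamin C).

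Sites needed at least 10 reads in all 4 libraries, and were placed by GENCODE vM1 gene records on mm9. Levels were means over sites, and calls used Fisher's exact test (two-sided, SciPy 1.17.1, Python 3.11.15) on reads pooled over sites, with Benjamini-Hochberg adjustment. On simulated data for KO minus WT in serum, with 200 of 2000 promoters changed by 35 points, 100% of the changed and 0 unchanged promoters were called. The simulated reads were independent, and unchanged promoters had the same level in all libraries. This checks the computation and does not give the error rate of the calls. The 4 samples of 1 library each were compared KO with WT in each medium and 2i + Vitamin C with serum in each genotype. Reads summed over sites ranged from 42684672 to 90649194 per library. Named promoters were the 8 largest losses and gains called in each comparison, the 10 highest in WT 2i + Vitamin C, the 10 highest of high CpG class, and list members called or at 50% or more in WT serum, with up to 4 more per list. Members, lists and rules were chosen with earlier results of these data known. Dut, Nol12, Traf3, Mbd4, Foxa2 and the Mgmt and Dut stretches were chosen after their values were seen. Sequences were read from the mm9 genome. Alternatives changed the coverage minimum, window, number of sites, averaging, depth, 5′ ends and the 20-point rule.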

Additional observations from a re-analysis of the deposited data

Results flagged for a closer look

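The mean difference between Chr4-cl KO and WT promoters had opposite signs in the 2 media, 1.442 points in serum and -0.9824 points in 2i + Vitamin C. Kcng3 was called in opposite directions as well, with KO minus WT at 23.38 points in serum and -22.06 points in 2i + Vitamin C, and 2i + Vitamin C minus serum at 22.12 points in WT and -23.31 points in KO cells. With 1 library per condition neither difference between the media or genotypes was tested. The 4 promoters with the next largest gap of this kind were 4833420G17Rik, Trpm3, Glra1 and Nol12, with gaps of 11.7, 11.1, 10.8 and 9.94 points.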

How the results depend on the processing

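No paired analysis was possible because each condition had 1 library, and no replicate could be left out. The called differences of named promoters kept their direction under the alternatives run on them. Thinning the reads of each site to its lowest coverage among the 4 libraries, and calling on 20 points alone, left every count within 1.5 times of its value, and thinning gave mean differences of 1.44 points (KO minus WT in serum) and -0.992 points (KO minus WT in 2i + Vitamin C). Of the differences of named promoters, 2 fell under the 20-point minimum with a coverage minimum of 20 reads, 4 with pooled reads and 3 with thinned reads. These were Rp1l1 (KO minus WT in serum) and Nap1l5 in the first, Peg10, Sgce, Sh3rf2 and Rp1l1 in the second, and Peg10, Sgce and Nnat in the third. The other 65, 95 and 96 that could be tested stayed called. Promoters left with too few sites were not tested, such as Plagl1, Sh3rf2 and Fas at 20 reads. Of the 40 gains in KO serum, 21 were still measured at 20 reads, and 20 of these stayed called. The numbers were 4 and 4 with at least 10 sites, and 10 and 10 without sites near a CCGG. The sign of the mean change with the medium in WT cells was not stable. The cause of these changes was not tested. A median of 49 to 105 reads per site limits single sites, and the absence of replicates limits every comparison.

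Only some alternatives changed the results, and in the values below the libraries are in the order WT serum, KO serum, WT 2i + Vitamin C and KO 2i + Vitamin C. With a coverage minimum of 5 reads 10320 promoters were left, and the mean difference was 1.51 points (KO minus WT in serum), -0.731 points (medium in WT) and -3.21 points (medium in KO cells). Counts of called promoters became 8 lower (KO minus WT in serum), 1 higher (KO minus WT in 2i + Vitamin C) and 1 higher (medium in KO cells). Mean levels were 3.38%, 4.89%, 2.65% and 1.68%, shares under 10% were 95.7%, 93.4%, 98.1% and 98.4%, and shares at 50% or more were 1.65% and 1.99% in the serum libraries. With a minimum of 20 reads 8012 promoters were left, and the mean difference was 1.38 points (KO minus WT in serum), -0.226 points (medium in WT) and -2.60 points (medium in KO cells). Counts of called promoters became 3 lower (KO minus WT in serum), 113 lower (medium in WT) and 21 higher (KO minus WT in serum). Mean levels were 2.64%, 4.03%, 2.42% and 1.42%, shares under 10% were 96.9%, 94.98%, 98.8% and 99.1%, and shares at 50% or more were 0.986% and 1.20% in the serum libraries. With 1000 bp around the 5′ end 10272 promoters were left, and the mean difference was 1.58 points (KO minus WT in serum), -0.966 points (medium in WT) and -3.53 points (medium in KO cells). Counts of called promoters became 383 lower (medium in KO cells), 1 higher (KO minus WT in 2i + Vitamin C) and 0 higher (medium in WT). Mean levels were 3.65%, 5.23%, 2.68% and 1.71%, shares under 10% were 94.5%, 92.1%, 97.9% and 98.3%, and shares at 50% or more were 1.64% and 2.02% in the serum libraries. With at least 10 sites per promoter 6811 promoters were left, and the mean difference was 1.18 points (KO minus WT in serum), 0.340 points (medium in WT) and -1.81 points (medium in KO cells). Counts of called promoters became 3 lower (KO minus WT in serum), 2 lower (KO minus WT in 2i + Vitamin C), 30 lower (medium in WT), 49 lower (medium in KO cells), 4 higher (KO minus WT in serum) and 0 higher (medium in WT). Mean levels were 1.83%, 3.01%, 2.17% and 1.20%, shares under 10% were 98.7%, 97.3%, 99.7% and 99.8%, and shares at 50% or more were 0.220%, 0.264%, 0.0294% and 0.0294%. With reads pooled over the sites of a promoter the mean difference was 1.42 points (KO minus WT in serum), -0.450 points (medium in WT) and -2.86 points (medium in KO cells). Counts of called promoters became 1 lower (KO minus WT in 2i + Vitamin C). Mean levels were 2.96% and 4.38% in the serum libraries. With the 5′ ends of all protein-coding transcripts 10289 promoters were left, and the mean difference was 1.56 points (KO minus WT in serum), -0.957 points (medium in WT) and -3.50 points (medium in KO cells). Mean levels were 3.71%, 5.27%, 2.76% and 1.77%, shares under 10% were 93.9%, 91.2%, 97.4% and 98.0%, and shares at 50% or more were 1.58% and 1.98% in the serum libraries. With sites within 20 bp of a CCGG left out, chosen after seeing the data, 7183 promoters were left, and the mean difference was 1.12 points (KO minus WT in serum), -0.945 points (KO minus WT in 2i + Vitamin C), 0.166 points (medium in WT) and -1.90 points (medium in KO cells). Counts of called promoters became 2 lower (KO minus WT in serum), 2 lower (KO minus WT in 2i + Vitamin C), 50 lower (medium in WT), 83 lower (medium in KO cells) and 11 higher (KO minus WT in serum). Mean levels were 1.84%, 2.96%, 2.01% and 1.06%, shares under 10% were 98.1%, 96.8%, 99.5% and 99.6%, and shares at 50% or more were 0.487% and 0.585% in the serum libraries.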

Other observations

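On the mitochondrial genome, which is outside the promoters and can serve as a reading of unconverted or miscalled cytosines, 5 sites had at least 10 reads in all libraries. The methylated reads there were 1 of 182 in WT serum, 1 of 94 in KO serum, 3 of 165 in WT 2i + Vitamin C and 1 of 204 in KO 2i + Vitamin C. These counts are too small to order the libraries.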
